A study of Homo sapiens with 9 samples.

Results

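The genes described are 10 genes of cell adhesion out of 58676 deposited genes, chosen by name: the desmogleins DSG1, DSG2 and DSG3, the desmocollins DSC2 and DSC3, the plaque genes DSP, PKP1 and JUP, the membrane gene PERP, and CDH1. All 10 were found and all 10 passed the filter on low counts, but DSG1 passed only through its CDDO-Me libraries. Their RNA was measured by sequencing in HaCaT cells, an immortalised human keratinocyte line, with 3 libraries per group. Cells received 250 nM CDDO-Me, 10 µM PRL-295 or 1% DMSO, in each case for 14 h. NRF2 is the transcription factor that drives antioxidant genes, and CDDO-Me, also called bardoxolone methyl, is a triterpenoid that activates it as an electrophile. The other compound carries only a code name, PRL-295, and the study's title speaks of non-electrophilic NRF2 activators. DMSO is named for the controls alone, with no word on whether it was also present in cultures given a compound. The compounds were used at different doses, so a difference between them is a difference between these treatments.

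The deposited table places the genes on build hg38. The cadherins of the desmosome lie together on chromosome 18: DSC3 (ENSG00000134762) and DSC2 (ENSG00000134755, chr18:31058840-31102415) on the minus strand, and DSG1 (ENSG00000134760, chr18:31318089-31357029), DSG3 (ENSG00000134757, chr18:31447795-31478702) and DSG2 (ENSG00000046604) on the plus strand. DSP (ENSG00000096696, chr6:7541575-7586717, plus strand) and PERP (ENSG00000112378, chr6:138088505-138107511, minus strand) are far apart on chromosome 6. PKP1 (ENSG00000081277) spans chr1:201283452-201332993 on the plus strand and JUP (ENSG00000173801) chr17:41754604-41786931 on the minus strand. CDH1 (ENSG00000039068) spans chr16:68737225-68835548 on the plus strand.

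Desmosomes are spot-like junctions that tie the keratin filaments of neighbouring keratinocytes together. Desmogleins and desmocollins are the cadherins that bridge the cells, plakoglobin (JUP) and plakophilins (PKP1) bind their tails, and desmoplakin (DSP) links this plaque to keratin. Adherens junctions use E-cadherin (CDH1) in the same way with actin, and plakoglobin can serve in both.

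Start regions are shown first for DSC2, DSC3, DSP and PERP, which passed the test between the compounds in the main edgeR fit, though not in every alternative. Those of DSG1 and DSG3, which share a stretch of sequence, follow. The set of RefSeq promoter entries used here (build GRCh38.p14) covered 9 of the 10 genes and had none for CDH1. Each window is the 250 bases before the start that RefSeq lists, read 5′ to 3′ on the gene's strand. That start differs from the start of the deposited gene: it lies inside the deposited gene by 96 bases for DSP, 92 for PERP, 73 for DSC3 and 71 for DSG1, and before it by 6 bases for DSC2 and 54 for DSG3. Capitals in the first 4 sequences mark matches to 4 motifs searched on both strands: TGACNNNGC (NRF2 core), TGANTCA (AP-1), CACCTG (an E-box of the SNAI and ZEB repressors) and AACNGGTT (Grainyhead-like factors). No matches overlapped. The windows are chr18:31102422-31102671 on the minus strand for DSC2, chr18:31042743-31042992 on the minus strand for DSC3, chr6:7541421-7541670 on the plus strand for DSP and chr6:138107420-138107669 on the minus strand for PERP.
DSC2: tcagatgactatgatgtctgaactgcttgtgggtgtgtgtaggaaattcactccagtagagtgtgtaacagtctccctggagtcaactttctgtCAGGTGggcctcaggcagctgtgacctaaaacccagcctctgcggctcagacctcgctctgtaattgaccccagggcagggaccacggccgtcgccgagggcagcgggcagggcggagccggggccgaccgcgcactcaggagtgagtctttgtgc
DSC3: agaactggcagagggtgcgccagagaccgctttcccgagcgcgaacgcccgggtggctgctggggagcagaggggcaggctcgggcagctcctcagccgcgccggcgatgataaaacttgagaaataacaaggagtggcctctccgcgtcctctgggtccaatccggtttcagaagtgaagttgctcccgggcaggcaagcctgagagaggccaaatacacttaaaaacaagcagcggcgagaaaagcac
DSP: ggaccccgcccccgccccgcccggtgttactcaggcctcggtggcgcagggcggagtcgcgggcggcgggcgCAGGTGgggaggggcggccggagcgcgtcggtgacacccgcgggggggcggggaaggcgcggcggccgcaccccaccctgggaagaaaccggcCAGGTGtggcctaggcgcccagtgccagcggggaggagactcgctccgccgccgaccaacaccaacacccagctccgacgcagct
PERP: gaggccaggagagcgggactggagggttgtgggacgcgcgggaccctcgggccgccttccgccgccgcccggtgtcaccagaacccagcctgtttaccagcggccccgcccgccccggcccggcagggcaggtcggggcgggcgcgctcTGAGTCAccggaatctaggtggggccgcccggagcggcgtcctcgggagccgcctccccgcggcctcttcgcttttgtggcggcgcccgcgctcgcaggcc
The E-box was matched in DSC2 at -156 to -151 and in DSP at -178 to -173 and -85 to -80, counted back from the RefSeq start, so that the second match in DSP falls within the deposited gene. PERP held an AP-1 match at -101 to -95, and DSC3 held none of the 4 motifs. Among the other windows, DSG1 and DSG2 held E-box letters, and DSG3, PKP1 and JUP held no match. Of all 35116 promoter entries of the same length, 10.9% held the NRF2 core, 6.57% the AP-1 motif, 17.5% the E-box and 1.49% the Grainyhead-like motif. These matches describe letters in a window and are not evidence of binding.

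DSG1 and DSG3 are printed because their windows shared an unbroken run of 20 bases, in capitals here, which was noticed after the sequences were read. It lies at -120 to -101 in DSG1 (chr18:31317910-31318159, plus strand) and at -78 to -59 in DSG3 (chr18:31447491-31447740, plus strand).
DSG1: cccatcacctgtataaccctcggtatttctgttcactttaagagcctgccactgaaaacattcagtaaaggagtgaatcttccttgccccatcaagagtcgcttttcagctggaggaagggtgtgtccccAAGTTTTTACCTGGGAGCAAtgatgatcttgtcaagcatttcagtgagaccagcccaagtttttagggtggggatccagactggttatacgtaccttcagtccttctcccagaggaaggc
DSG3: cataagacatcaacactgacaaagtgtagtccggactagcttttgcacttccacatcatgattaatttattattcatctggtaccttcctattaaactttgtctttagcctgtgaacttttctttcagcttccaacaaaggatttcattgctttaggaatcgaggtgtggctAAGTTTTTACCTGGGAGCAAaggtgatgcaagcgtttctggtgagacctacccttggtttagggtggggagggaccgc
Among the 36 pairs of member windows, the longest shared run of the other pairs was 7 to 11 bases on the same strand. Only 2 of the 35116 entries held the run of 20 bases on either strand, those of DSG1 and DSG3. In DMSO libraries DSG3 averaged 35.0 ± 3.05 FPKM and DSG1 0.0236 ± 0.0408 FPKM (SD, n = 3). FPKM are the deposited values per gene length and library total, the scale used here for levels of different genes.

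Library totals ran from 23383800 to 32942156 counted reads, and 3 counts, taken as the floor of detection, equal 0.0911 to 0.128 CPM. CPM are counts scaled to library size by TMM, and floors cover counting error only. Separate cultures are not stated for the 3 libraries of a group, so p-values measure the spread between samples, which may be technical. All 6 keratinocyte markers were above 1 FPKM in their mean, and their summed level was 6142 to 7136 FPKM with CDDO-Me, 4146 to 4409 FPKM with PRL-295 and 4853 to 5369 FPKM with DMSO. Of these markers 5 were called higher with CDDO-Me against DMSO, where 4.65% of all tested genes were. With PRL-295 against CDDO-Me 4 were called lower, where 0.684% of tested genes were. The part of these markers in the junction results was not tested. The 4 lists of fibroblast, melanocyte, immune and endothelial markers each summed to at most 1.33 FPKM, and COL3A1, DCN, LUM, TYR and PECAM1 were at 0 in all 9 libraries. Across genes, log2 CPM relative to the 9-library mean followed GC content to a different degree in each library: r was -0.0168, -0.546 and -0.143 in CDDO-Me 1 to 3, -0.333, 0.269 and -0.075 in PRL-295 1 to 3, and 0.261, 0.206 and 0.271 in DMSO 1 to 3. Values corrected for GC content and gene length are therefore given for the junction genes where they change a call or a direction.

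Plakoglobin was the most abundant of the 10 transcripts in every group, at 249 ± 53.3 FPKM with CDDO-Me, 218 ± 6.61 FPKM with PRL-295 and 293 ± 30.0 FPKM with DMSO (SD, n = 3). Its libraries did not overlap those of DSP, next in order in all 3 groups. DSP, PKP1 and PERP followed in that order throughout. DSP and PKP1 did not overlap with CDDO-Me (136 to 174 against 94.5 to 126 FPKM), but did with PRL-295 and with DMSO. CDH1 came after PERP in every group, at 57.7 ± 1.07 FPKM with CDDO-Me, 57.6 ± 2.18 FPKM with PRL-295 and 67.2 ± 5.8 FPKM with DMSO. The cadherins DSG2, DSG3 and DSC3 came next and overlapped one another as neighbours in every group, with DSC3 first among them under CDDO-Me (54.8 ± 5.03 FPKM), DSG2 first under PRL-295 (32.6 ± 9.44 FPKM) and DSG3 first under DMSO (35.0 ± 3.05 FPKM). DSC2 lay below them at 7.12 ± 0.794 FPKM with CDDO-Me, 3.73 ± 0.926 FPKM with PRL-295 and 3.96 ± 0.293 FPKM with DMSO. DSG1 stood last. Summed over the 9 desmosomal genes, the level was 851, 727 and 720.2 FPKM in CDDO-Me 1 to 3, 537, 463 and 559 FPKM in PRL-295 1 to 3, and 757, 649 and 659 FPKM in DMSO 1 to 3.

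**Figure D1:**
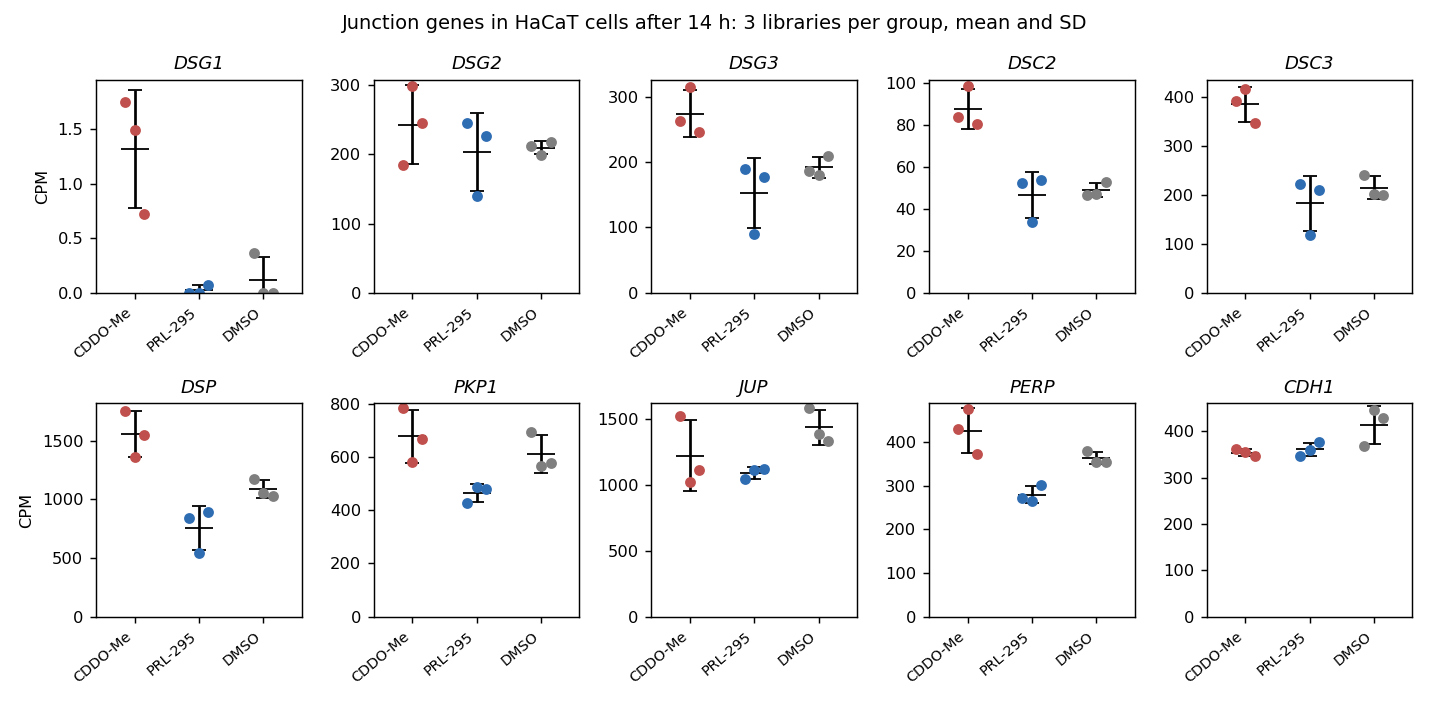
Level in CPM (y axis, from 0) of each of the 10 genes in CDDO-Me, PRL-295 and DMSO libraries, with a point per library and bars for the mean and SD of 3 libraries. DSG3, DSC2, DSC3, DSP and, on few reads, DSG1 show all 3 CDDO-Me points above all PRL-295 and DMSO points. DSP, PKP1, JUP and PERP show all PRL-295 points below all DMSO points.

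With CDDO-Me, both desmocollins rose: DSC2 and DSC3 were each 1.79-fold higher than with DMSO. They were 2 of the 10 genes called higher at an adjusted p under 0.05 (edgeR's quasi-likelihood test, Benjamini-Hochberg over 16239 tested genes), against 4.65% of all tested genes called higher. None was called lower, where 4.57% of tested genes were, and 9.22% were called in either direction. With the GC and length correction neither desmocollin was called and PKP1 was instead, and without DMSO 1 or DMSO 2 none of the 10 was called. DSG1 entered the test only through its CDDO-Me libraries and is left out of counts and medians of 9 genes. Counts of 10 genes include it. The 3 CDDO-Me libraries lay above all 3 DMSO libraries for 4 of the other 9 genes (DSG3, DSC2, DSC3 and DSP), against 15.5% of all tested genes, and below them for CDH1, against 16.3%. At an unadjusted p under 0.05 there were 5 of 9, against 26.0% of tested genes. The median log2 fold change of the 9 was 0.23, and that of all tested genes 0.01.

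With PRL-295, none of the 10 passed the test against DMSO in edgeR, where 0.462% of all tested genes were called higher, 0.222% lower and 0.684% in either direction. DESeq2 called PERP (adjusted p = 0.043), as did edgeR with the GC and length correction (0.0398), and limma on log2 FPKM called none. DSP was called with no filter on low counts (-0.50, adjusted p = 0.0131) and JUP without CDDO-Me 1 (0.0457). At an unadjusted p under 0.05 there were 4 of 9, all with lower values (DSP, PKP1, JUP and PERP), against 12.9% of all tested genes in either direction. For the same 4 genes all PRL-295 libraries lay below all DMSO libraries, against 13.7% of tested genes. All 9 log2 fold changes were below 0, with a median of -0.34 against -0.01 for all tested genes. Without PRL-295 2, those of DSG2 (0.17), DSC2 (0.12) and DSC3 (0.01) were above 0, and DSG3 was at -0.06.

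Set directly against CDDO-Me, PRL-295 gave lower DSC2, DSC3, DSP and PERP. These 4 of 10 genes were called lower, where 0.684% of tested genes were. None was called higher, where 0.905% were, and 1.59% of tested genes were called in either direction. DESeq2 called 6, adding DSG3 (adjusted p = 0.00611) and PKP1 (0.00758). With the GC and length correction edgeR called DSG3 (adjusted p = 0.0343) and PKP1 (0.00495) beside DSC3 and DSP, but not DSC2 (0.0663) or PERP (0.0546). With DSG1 left out, all PRL-295 libraries lay below all CDDO-Me libraries for 6 of 9 (these 4, DSG3 and PKP1), against 10.2% of tested genes. The median log2 fold change of the 9 was -0.61, and -0.01 for all tested genes. In a fit of only the 6 libraries of both compounds, none of the 10 passed, with 45 genes called in all. An F test across the 3 groups called the same 4 genes, with adjusted p of 0.015 for DSP, 0.017 for DSC2, 0.0189 for DSC3 and 0.024 for PERP, where 5.68% of all tested genes were called. Each of these comparisons shares a group with the others, so they are not independent of one another. In bulk RNA, fewer cells that carry a transcript and less of it per cell cannot be told apart.

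**Figure D2:**
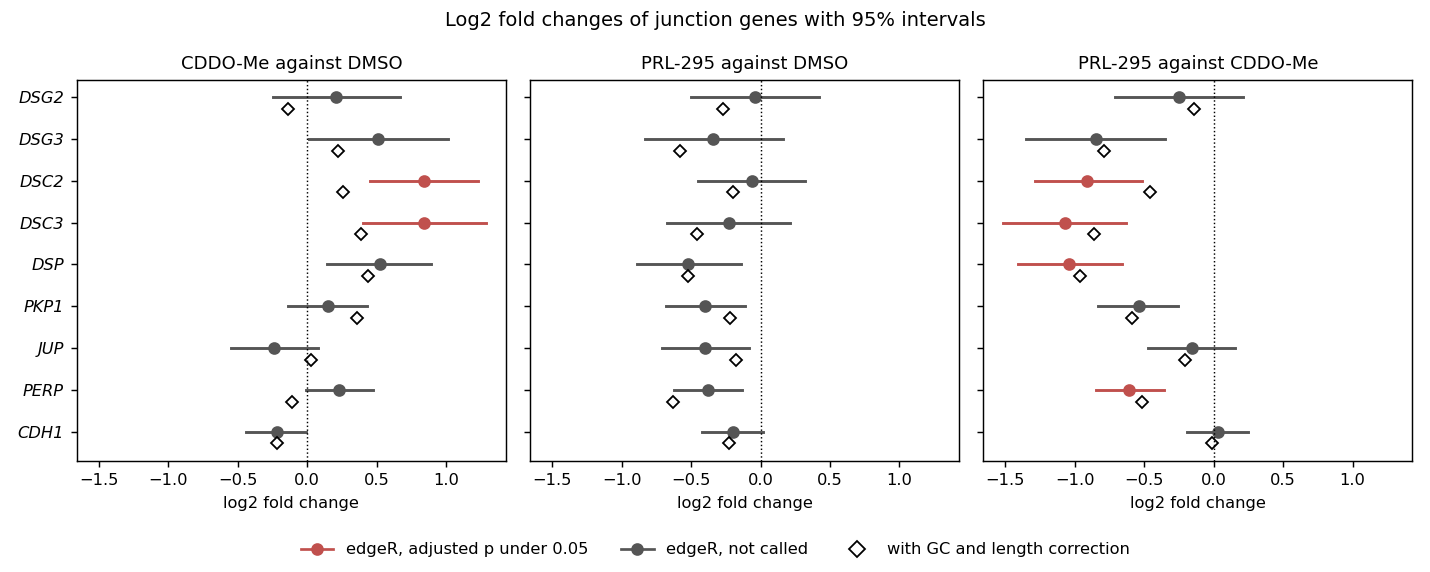
Log2 fold change (x axis) of 9 genes in the 3 comparisons, with 95% intervals from edgeR as lines, called genes in red and the value after correction for GC content and gene length as an open diamond. DSC2 falls to 0.26 with the correction for CDDO-Me against DMSO, and DSC3 to 0.39, while DSP stays at -0.96 for PRL-295 against CDDO-Me. DSG1 is left out for its wide interval.

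Among the desmogleins, DSG1, the desmoglein of the upper epidermal layers, had few reads. There were 56, 44 and 17 reads in CDDO-Me 1 to 3, 0, 0 and 2 reads in PRL-295 1 to 3, and 9, 0 and 0 reads in DMSO 1 to 3. In CPM it was 1.75, 1.49 and 0.72 with CDDO-Me, 0, 0 and 0.074 with PRL-295, and 0.365, 0 and 0 with DMSO. Every CDDO-Me library was thus above every other library, but the difference from DMSO did not pass edgeR's test (log2 fold change 3.47, interval 0.05 to 6.89, adjusted p = 0.187). Nor did the difference between PRL-295 and CDDO-Me (adjusted p = 0.154). For CDDO-Me against DMSO, limma called DSG1 on log2(FPKM + 1) (adjusted p = 0.0398) and on log2(FPKM + 0.1) (0.0283). The direct difference was called by edgeR with no filter on low counts (adjusted p = 0.0296) and by limma on log2(FPKM + 0.1) (0.049). Since DSG1 passed the filter only because of its CDDO-Me reads, all these values are a description.

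DSG3, the desmoglein of the lower epidermal layers and the main antigen in pemphigus vulgaris, had 263, 315 and 246 CPM with CDDO-Me, 190.1, 90.7 and 177 CPM with PRL-295, and 186, 181 and 210.2 CPM with DMSO. The CDDO-Me libraries were the 3 highest, and PRL-295 2 was the lowest of all 9. The log2 fold change was 0.51 for CDDO-Me against DMSO (interval 0.01 to 1.01, edgeR adjusted p = 0.182) and -0.34 for PRL-295 against DMSO (interval -0.83 to 0.16, adjusted p = 0.594). Between PRL-295 and CDDO-Me it was -0.85 (interval -1.35 to -0.35, adjusted p = 0.0956). With the correction for GC content and gene length the direct difference was -0.79 and passed (adjusted p = 0.0343). Without PRL-295 2 it was -0.58 and did not (adjusted p = 0.119), whereas DSG3 then passed for CDDO-Me against DMSO (0.51, adjusted p = 0.0231).

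DSG2, the desmoglein found in simple epithelia and heart as well as in keratinocytes, had 185, 299 and 245 CPM with CDDO-Me, 246, 140.0 and 226 CPM with PRL-295, and 212, 199 and 218 CPM with DMSO. All 3 groups overlapped. Its log2 fold change was 0.21 for CDDO-Me against DMSO (interval -0.25 to 0.67), -0.04 for PRL-295 against DMSO (interval -0.50 to 0.42) and -0.25 for PRL-295 against CDDO-Me (interval -0.71 to 0.21). Adjusted p were 0.573, 0.971 and 0.59 in the same order, with edgeR. The direction turned to -0.14 for CDDO-Me with the GC and length correction and to 0.17 for PRL-295 without PRL-295 2.

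DSC2, the desmocollin with the broadest tissue range, had 83.5, 98.2 and 80.4 CPM with CDDO-Me, 52.4, 33.9 and 53.6 CPM with PRL-295, and 46.7, 46.9 and 52.7 CPM with DMSO. CDDO-Me libraries were well above the other 6, and PRL-295 libraries overlapped DMSO. DSC2 rose by 0.84 on the log2 scale for CDDO-Me against DMSO (SE 0.18, interval 0.45 to 1.23, edgeR adjusted p = 0.0155). PRL-295 gave a level 1.87-fold below that with CDDO-Me (log2 fold change -0.91, SE 0.18, adjusted p = 0.0308). Against DMSO, PRL-295 gave -0.06 (interval -0.45 to 0.32, adjusted p = 0.944). The call for CDDO-Me was lost without DMSO 1 (adjusted p = 0.0766) or DMSO 2 (0.0809). The direct call was kept without CDDO-Me 1 (adjusted p = 0.0358) and lost without any other library (0.0552 to 0.0772). With the GC and length correction DSC2 was 0.26 for CDDO-Me against DMSO (adjusted p = 0.252, with a range of 3.26e-05 to 0.26 over all alternatives) and -0.46 in the direct comparison (adjusted p = 0.0663).

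DSC3, the main desmocollin of basal keratinocytes, had 390.3, 415 and 346 CPM with CDDO-Me, 221, 118 and 209 CPM with PRL-295, and 240.5, 202 and 199 CPM with DMSO. Again the CDDO-Me libraries lay above all others, and PRL-295 2 was the lowest of the 9. DSC3 rose by 0.84 with CDDO-Me against DMSO (SE 0.20, interval 0.40 to 1.29, edgeR adjusted p = 0.0275). With PRL-295 it stood 2.10-fold below CDDO-Me (log2 fold change -1.07, SE 0.20, adjusted p = 0.0254), and -0.23 for PRL-295 against DMSO (interval -0.67 to 0.21, adjusted p = 0.715). The rise with CDDO-Me was no longer called without DMSO 1 (adjusted p = 0.0679), DMSO 2 (0.114), DMSO 3 (0.0945) or CDDO-Me 2 (0.0655), or with the GC and length correction (0.39, adjusted p = 0.106, with a range of 1.69e-07 to 0.114 over all alternatives). The direct difference kept its call with that correction (-0.86, adjusted p = 0.00563) and lost it without DMSO 2 (0.0568), CDDO-Me 3 (0.0606) or PRL-295 3 (0.0613). Without PRL-295 2 it was -0.84 (adjusted p = 0.0207), and the value for PRL-295 against DMSO turned to 0.01. DSC2 and DSC3 lie side by side on chromosome 18 and had transcripts of low GC content, 38.9% and 39.9%.

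In the plaque, DSP had 1757, 1362 and 1551 CPM with CDDO-Me, 838, 544 and 893 CPM with PRL-295, and 1175, 1057 and 1028 CPM with DMSO. The 3 groups did not overlap, with CDDO-Me highest and PRL-295 lowest. Under PRL-295, DSP was at a level 2.05-fold below CDDO-Me (log2 fold change -1.04, SE 0.17, interval -1.41 to -0.66, edgeR adjusted p = 0.0135). Neither compound passed against DMSO, with a log2 fold change of 0.52 for CDDO-Me (interval 0.14 to 0.89, adjusted p = 0.08) and -0.52 for PRL-295 (interval -0.89 to -0.14, adjusted p = 0.222). DESeq2 called the CDDO-Me value (adjusted p = 0.0302), as did edgeR without PRL-295 2 (adjusted p = 0.0143). The direct call held with the GC and length correction (-0.96, adjusted p = 0.0053) and without each library but CDDO-Me 3 (adjusted p = 0.0561).

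PKP1, the plakophilin of suprabasal keratinocytes, had 783, 581 and 668 CPM with CDDO-Me, 426, 487 and 480.1 CPM with PRL-295, and 694, 565 and 576 CPM with DMSO. PRL-295 libraries were the 3 lowest, while CDDO-Me and DMSO overlapped. The log2 fold change was 0.15 for CDDO-Me against DMSO (interval -0.14 to 0.43, edgeR adjusted p = 0.518), -0.40 for PRL-295 against DMSO (interval -0.68 to -0.11, adjusted p = 0.222) and -0.54 between PRL-295 and CDDO-Me (interval -0.83 to -0.26, adjusted p = 0.0667). With the GC and length correction PKP1 passed for CDDO-Me against DMSO (0.36, adjusted p = 0.0293) and in the direct comparison (-0.59, adjusted p = 0.00495).

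JUP had 1529, 1026 and 1114 CPM with CDDO-Me, 1044, 1113 and 1125 CPM with PRL-295, and 1590, 1392 and 1338 CPM with DMSO. CDDO-Me 1 lay among the DMSO libraries, and all others of both compounds lay below DMSO. No difference passed edgeR's test, with -0.24 for CDDO-Me against DMSO (interval -0.55 to 0.08, adjusted p = 0.326), -0.40 for PRL-295 against DMSO (interval -0.71 to -0.08, adjusted p = 0.264) and -0.16 between PRL-295 and CDDO-Me (interval -0.47 to 0.15, adjusted p = 0.613). Without CDDO-Me 1, JUP was called lower against DMSO for CDDO-Me (-0.43, adjusted p = 0.0205) and for PRL-295 (-0.39, adjusted p = 0.0457), and the direct difference turned to 0.04. JUP had the highest transcript GC content of the 10, 61.5%, and with the GC and length correction its value for CDDO-Me against DMSO was 0.03.

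PERP, whose membrane protein sits in desmosomes, had 430.1, 475 and 372 CPM with CDDO-Me, 272, 264 and 302 CPM with PRL-295, and 379, 355 and 355 CPM with DMSO. PRL-295 libraries were the 3 lowest with little spread among them, and CDDO-Me 3 lay within the DMSO range. PERP under PRL-295 was 1.52-fold below its level under CDDO-Me (log2 fold change -0.61, SE 0.11, edgeR adjusted p = 0.022). Against DMSO the values were 0.23 for CDDO-Me (interval -0.01 to 0.47, adjusted p = 0.215) and -0.38 for PRL-295 (interval -0.62 to -0.13, adjusted p = 0.173). The direct call was lost without DMSO 2 (adjusted p = 0.0566), CDDO-Me 2 (0.0763) or any of the PRL-295 libraries (0.0809 to 0.113). With the GC and length correction it was -0.52 (adjusted p = 0.0546), the value for CDDO-Me against DMSO turned to -0.11, and PERP was called lower for PRL-295 against DMSO (-0.63, adjusted p = 0.0398).

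CDH1, which encodes E-cadherin, had 362, 355 and 346 CPM with CDDO-Me, 347, 359 and 376 CPM with PRL-295, and 368, 445 and 428 CPM with DMSO. The compounds overlapped each other, and CDDO-Me libraries lay just below DMSO. No difference passed in edgeR: -0.22 for CDDO-Me against DMSO (interval -0.44 to -0.01, adjusted p = 0.182), -0.20 for PRL-295 against DMSO (interval -0.42 to 0.02, adjusted p = 0.446) and 0.03 between PRL-295 and CDDO-Me (interval -0.19 to 0.25, adjusted p = 0.926). The last interval is the narrowest of the 10 genes in the direct comparison, though the sign of its value turned with several settings.

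**Figure D3:**
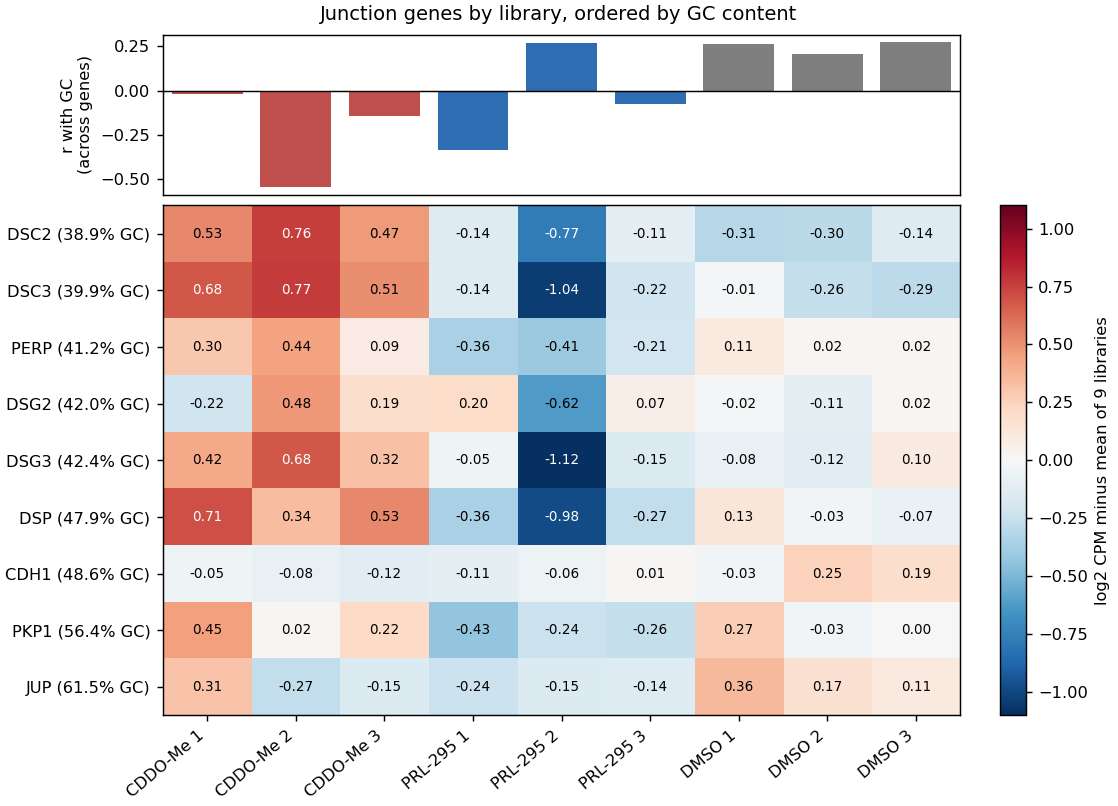
The lower panel shows log2 CPM minus the gene's mean over the 9 libraries (colour and printed value) for 9 genes ordered by transcript GC content, and the upper panel the correlation across genes of each library's deviation with GC content. PRL-295 2 is the lowest library for DSG2, DSG3, DSC2, DSC3, DSP and PERP, and CDDO-Me 2 is the highest for DSG2, DSG3, DSC2, DSC3 and PERP.

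The libraries of a group were not alike across the genes. PRL-295 2 was the lowest PRL-295 library for 6 of 9 genes (DSG1 aside), namely DSG2, DSG3, DSC2, DSC3, DSP and PERP. DSG3 stood 1.12 and DSC3 1.04 below their means over all libraries there on the log2 scale of the plot by library (values of -1.12 and -1.04), against -0.05 and -0.14 in PRL-295 1. That library's r with GC content was 0.269, and those of the other PRL-295 libraries -0.333 and -0.075, and the part of GC content in these values was not tested library by library. JUP, PKP1 and CDH1 were lowest in PRL-295 1 instead.

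The make-up of the desmoglein pool was set out as shares. DSG3 made up 61.1%, 54.0% and 52.9% of the summed FPKM of DSG1, DSG2 and DSG3 in CDDO-Me 1 to 3, 46.4%, 42.1% and 46.8% in PRL-295 1 to 3, and 49.5%, 50.5% and 51.9% in DMSO 1 to 3. The 3 groups did not overlap, and both differences from DMSO reached an exact two-sided permutation p of 0.1, the smallest that 3 against 3 libraries allow. Means were 56.0 ± 4.48% with CDDO-Me, 45.1 ± 2.6% with PRL-295 and 50.6 ± 1.22% with DMSO. Nearly all of the rest was DSG2, at 43.7 ± 4.61%, 54.9 ± 2.61% and 49.3 ± 1.17% in the same order of groups. Its exact permutation p of 0.1 repeats that of DSG3 and is no separate result, since these shares nearly sum to the whole. The share of DSC2 in the desmocollins overlapped between each compound and DMSO. It was 11.5 ± 0.538% with CDDO-Me, 12.9 ± 1.07% with PRL-295 and 11.6 ± 1.58% with DMSO (exact permutation p of 1.0 for CDDO-Me and 0.4 for PRL-295 against DMSO, n = 3). Between the compounds, the highest CDDO-Me share and the lowest PRL-295 share both rounded to 11.9%, and this comparison was not tested. The ratio of CDH1 to DSP in FPKM was 0.375 ± 0.0456 with CDDO-Me, 0.814 ± 0.229 with PRL-295 and 0.627 ± 0.1 with DMSO, with exact permutation p of 0.1 and 0.5 against DMSO (n = 3). In PRL-295 2 the ratio was 1.08, against 0.677 and 0.688 in the other PRL-295 libraries. These 8 tests were 4 measures against DMSO for each compound, with the DSG2 and DSG3 shares near complements, and none could reach 0.05.

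**Figure D4:**
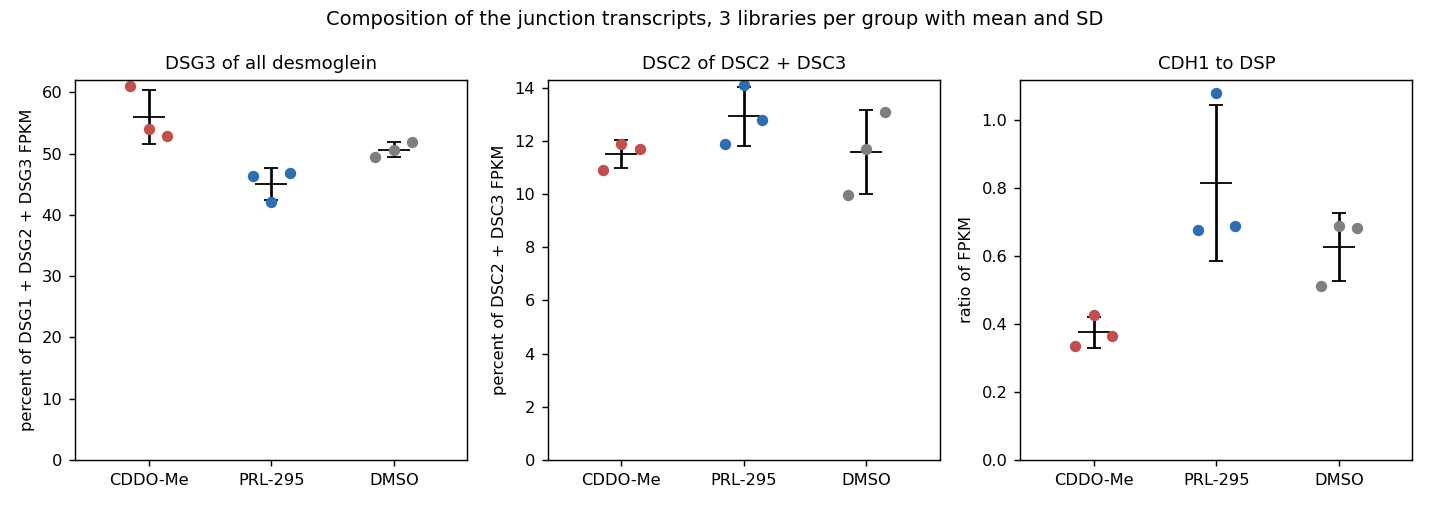
Share of DSG3 in desmoglein FPKM (percent), share of DSC2 in desmocollin FPKM (percent) and ratio of CDH1 to DSP FPKM, with a point per library and bars for the mean and SD of 3 libraries. DSG3 shares are 52.9% to 61.1% with CDDO-Me, 42.1% to 46.8% with PRL-295 and 49.5% to 51.9% with DMSO, without overlap.

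The desmosomal cadherins form a cluster of 559.0 kb on chromosome 18 (hg38), in which the desmocollins are on the minus strand and the desmogleins on the plus strand, in the order DSC3, DSC2, DSC1, DSG1, DSG4, DSG3 and DSG2. DSC3 (chr18:30990008-31042815) and DSG2 (chr18:31498043-31549008) stand at its ends. DSC3, DSG3 and DSG2 were its abundant genes, at 16.2 to 59.5 FPKM for DSC3, 15.9 to 57.6 FPKM for DSG3 and 21.9 to 48.8 FPKM for DSG2 over all libraries. DSC1, a desmocollin of differentiated layers, had 8 reads over the CDDO-Me libraries, 0 over the PRL-295 libraries and 3 over the DMSO libraries, and was not tested. DSG4, a desmoglein of hair and upper epidermis named here after its values were seen, had 134, 217 and 90 reads with CDDO-Me, 20, 13 and 16 reads with PRL-295, and 77, 50 and 130 reads with DMSO. Its level under PRL-295 was below that under CDDO-Me (log2 fold change -3.00, SE 0.50, edgeR adjusted p = 0.0135). Its PRL-295 libraries lay below all DMSO libraries, against 13.7% of all tested genes, without passing (-2.19, edgeR adjusted p = 0.0809). The difference between PRL-295 and DMSO passed with the GC and length correction (-2.45, adjusted p = 0.0239), the 6 libraries only (0.0301), no filter on low counts (0.0115) and without CDDO-Me 1 (0.0237). Its direct call was lost without PRL-295 2 (adjusted p = 0.0669) or PRL-295 3 (0.0885) and with the 6 libraries only (0.0528). Antisense genes overlap DSG2 and DSC2, but had 76 reads for DSG2-AS1 and 12 for DSCAS over all libraries, against 54947 for DSG2 and 15439 for DSC2. The strand setting of the counting is not given in the sources used here, so reads of overlapping genes cannot be told apart.

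**Figure D5:**
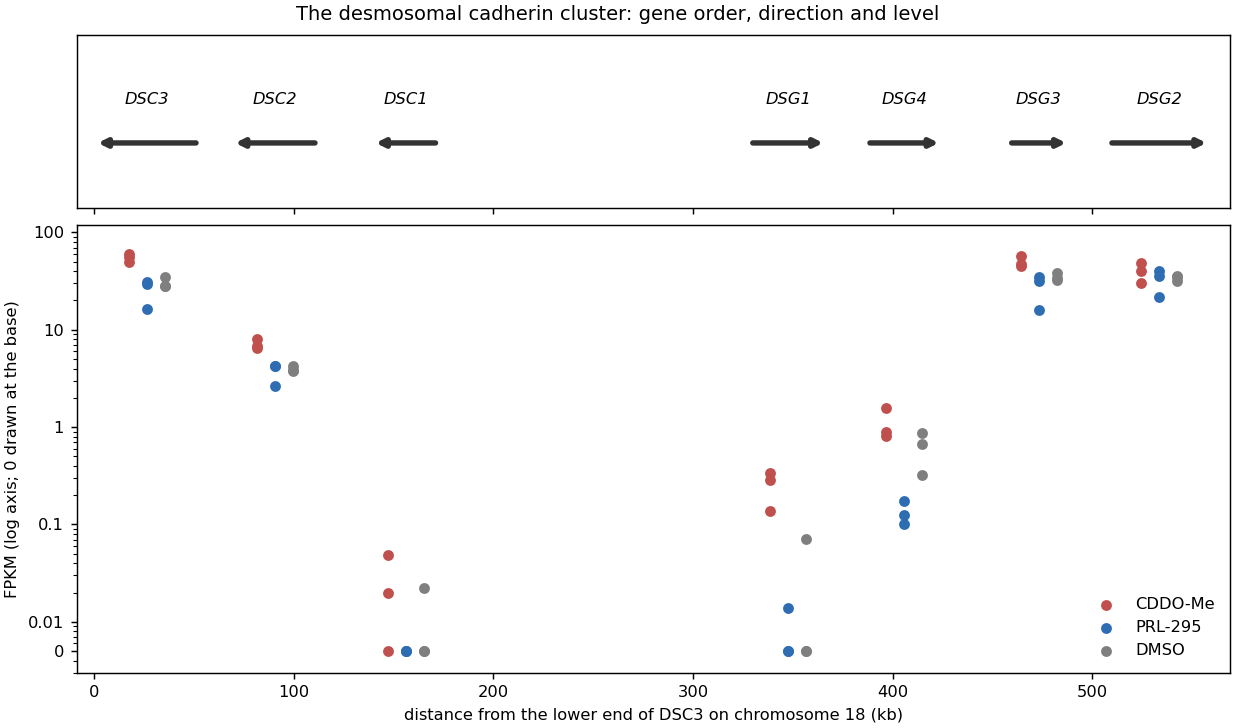
Upper panel: position (kb from the lower end of DSC3) and direction of the 7 desmosomal cadherin genes on chromosome 18. Lower panel: FPKM (log axis, 0 drawn at the base) of each gene in every library, set beside its position. DSC3, DSG3 and DSG2 lie between 15.9 and 59.5 FPKM, and DSC1 and DSG1 lie at 0.334 FPKM or less.

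Other genes of the desmosome were called in 1 comparison only. Of 7 tested (of 8 listed), none was called for either compound against DMSO in edgeR. At an unadjusted p under 0.05 there was 1 for CDDO-Me and 4 for PRL-295, against 26.0% and 12.9% of all tested genes. DSG4 alone was called in the direct comparison, where 0.684% of tested genes were called lower. Their median log2 fold change was 0.01 for CDDO-Me and -0.46 for PRL-295 against DMSO. PKP3, a plakophilin of all epidermal layers, averaged 583 ± 140.3 CPM with CDDO-Me, 479 ± 15.6 CPM with PRL-295 and 656 ± 96.4 CPM with DMSO (SD, n = 3). PPL, the plaque and envelope protein periplakin, averaged 602 ± 198 CPM, 422 ± 25.3 CPM and 565 ± 87.0 CPM in the same order. Both had all PRL-295 libraries below all DMSO libraries, as had most other tested genes of this list, against 13.7% of all tested genes. Neither passed (edgeR log2 fold changes of -0.45 and -0.42 for PRL-295 against DMSO, adjusted p of 0.263 and 0.408).

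Among 12 adherens junction genes other than CDH1, 3 fell and 1 rose with CDDO-Me against DMSO, where 4.57% and 4.65% of all tested genes did. None was called for PRL-295. At an unadjusted p under 0.05 there were 8 for CDDO-Me and 4 for PRL-295, against 26.0% and 12.9% of tested genes. CDH3, the P-cadherin of basal keratinocytes, averaged 569 ± 17.9 CPM with CDDO-Me, 834 ± 51.2 CPM with PRL-295 and 929 ± 63.5 CPM with DMSO. It fell with CDDO-Me against DMSO (log2 fold change -0.71, edgeR adjusted p = 0.00149), without each library in turn too, and was higher with PRL-295 than with CDDO-Me (0.55, adjusted p = 0.0162). The direct call was lost without CDDO-Me 3 (adjusted p = 0.0601), PRL-295 2 (0.0616) or PRL-295 3 (0.11). ARVCF, a catenin that binds cadherin tails, fell by 0.90 on the log2 scale with CDDO-Me (adjusted p = 0.0103, and 0.0604 without DMSO 2). NECTIN4, an adhesion molecule that works beside cadherins, fell by 0.83 (adjusted p = 0.0154), and AFDN, the adaptor that ties nectins to actin, rose by 0.58 (adjusted p = 0.0161). NECTIN4 averaged 18.8 ± 1.01 CPM with CDDO-Me, 18.2 ± 3.45 CPM with PRL-295 and 33.3 ± 1.09 CPM with DMSO. Its PRL-295 libraries also lay below all DMSO libraries, as did those of ARVCF and some others of the list, against 13.7% of tested genes. The log2 fold change of NECTIN4 for PRL-295 against DMSO was -0.87 (edgeR adjusted p = 0.0512), and the direct difference was -0.04 (interval -0.42 to 0.34). NECTIN4 and AFDN both lost their CDDO-Me calls when any DMSO library was left out (adjusted p of 0.0593 to 0.0742) or without CDDO-Me 3 (0.0503 and 0.0509). The list's median was -0.20 for CDDO-Me and -0.11 for PRL-295 against DMSO. CTNND1, the p120 catenin, averaged 497 ± 12.8 CPM with CDDO-Me, 540.1 ± 14.2 CPM with PRL-295 and 564 ± 22.2 CPM with DMSO, with no call.

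Of 13 tight and gap junction genes, 1 rose and 1 fell with CDDO-Me against DMSO, where 4.65% and 4.57% of all tested genes did. None was called for PRL-295. At an unadjusted p under 0.05 there were 3 for CDDO-Me and 3 for PRL-295, against 26.0% and 12.9% of tested genes. CLDN7, a claudin of simple and stratified epithelia, averaged 197 ± 14.1 CPM with CDDO-Me, 332 ± 37.4 CPM with PRL-295 and 352 ± 9.3 CPM with DMSO. It fell with CDDO-Me (-0.84, edgeR adjusted p = 0.00134), without each library in turn too, and was 1.69-fold higher with PRL-295 than with CDDO-Me (adjusted p = 0.0074, and 0.0563 without PRL-295 3). CLDN1, the claudin needed for the epidermal barrier, was at 153 ± 15.2 CPM with CDDO-Me, 93.5 ± 7.78 CPM with PRL-295 and 104 ± 4.6 CPM with DMSO. Its log2 fold change was 0.55 for CDDO-Me against DMSO (adjusted p = 0.0146) and -0.71 in the direct comparison (adjusted p = 0.0115). The CDDO-Me call of CLDN1 was lost without any DMSO library (0.0524 to 0.079), without CDDO-Me 2 (0.0599) and with the GC and length correction (0.23, adjusted p = 0.257), and its direct call without PRL-295 2 (0.0543) or PRL-295 3 (0.0795). The list's median was 0.27 for CDDO-Me and -0.08 for PRL-295 against DMSO.

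Among 14 transcription factors known to act on junction genes, 10 were tested. With CDDO-Me against DMSO 2 rose and 1 fell, where 4.65% and 4.57% of all tested genes did, and with PRL-295 none was called. At an unadjusted p under 0.05 there were 4 for CDDO-Me and 3 for PRL-295, against 26.0% and 12.9% of tested genes. SNAI2, a repressor of CDH1, had 60.2, 85.4 and 64.4 CPM with CDDO-Me, 53.7, 41.3 and 53.1 CPM with PRL-295, and 41.1, 36.9 and 42.1 CPM with DMSO. It rose with CDDO-Me (0.81, edgeR adjusted p = 0.0147), a call lost without DMSO 1 (0.0628), DMSO 2 (0.082) or CDDO-Me 2 (0.0504). Between PRL-295 and CDDO-Me, SNAI2 was at -0.50 (adjusted p = 0.155), and at -0.52 with the GC and length correction, which passed (0.0323). TP63, the master factor of stratified epithelia and known to drive PERP in mouse skin, rose by 0.60 (adjusted p = 0.0447), and GRHL3, a barrier gene activator, fell by 0.73 (adjusted p = 0.0496). Both calls sat at the threshold and were lost with the GC and length correction (adjusted p of 0.187 and 0.0844). TP63 lost its call without any DMSO library, CDDO-Me 2, CDDO-Me 3, PRL-295 1 or PRL-295 3 (0.0602 to 0.166), and GRHL3 without any DMSO or CDDO-Me library, PRL-295 1 or PRL-295 3 (0.0602 to 0.178). KLF5, a zinc finger factor of epithelia, averaged 116 ± 7.23 CPM with CDDO-Me, 86.7 ± 17.3 CPM with PRL-295 and 94.0 ± 15.6 CPM with DMSO, with no call. The list's median log2 fold change was 0.05 for CDDO-Me and -0.27 for PRL-295 against DMSO.

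Of 9 proteases, inhibitors and kinases that act on junctions, 1 rose and 1 fell with CDDO-Me against DMSO. Of all tested genes, 4.65% rose and 4.57% fell. None of the 9 was called for PRL-295. At an unadjusted p under 0.05 there were 5 for CDDO-Me and 1 for PRL-295, against 26.0% and 12.9% of tested genes. KLK5, a secreted protease that cuts desmosomal cadherins as cells are shed, had 118, 84.0 and 97.1 CPM with CDDO-Me, 150.1, 177 and 170.1 CPM with PRL-295, and 192, 182 and 201 CPM with DMSO. It fell with CDDO-Me (-0.95, edgeR adjusted p = 0.00216), without each library in turn too. PRL-295 exceeded CDDO-Me by a log2 difference of 0.73 (adjusted p = 0.0215). This call was lost without DMSO 2 (0.0519), CDDO-Me 2 (0.05), CDDO-Me 3 (0.0917), PRL-295 2 (0.0806) or PRL-295 3 (0.101) and with the GC and length correction (0.0999). ADAM17, a sheddase of surface proteins, averaged 49.4 ± 6.42 CPM with CDDO-Me, 35.0 ± 1.99 CPM with PRL-295 and 25.8 ± 2.88 CPM with DMSO, and rose with CDDO-Me (0.94, adjusted p = 0.00506). With the GC and length correction that rise was 0.43 and did not pass (adjusted p = 0.198). EGFR, whose signalling loosens desmosomes, averaged 575 ± 106 CPM with CDDO-Me, 402 ± 76.5 CPM with PRL-295 and 424 ± 49.2 CPM with DMSO, with no call. The list's median was 0.44 for CDDO-Me and 0.06 for PRL-295 against DMSO.

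In the list of 7 mesenchymal genes, VIM alone was called, and its reads were few: 91, 63 and 67 reads with CDDO-Me, 12, 5 and 8 reads with PRL-295, and 6, 23 and 6 reads with DMSO. VIM, which encodes the mesenchymal filament protein vimentin, was higher with CDDO-Me against DMSO (log2 fold change 2.76, SE 0.74, edgeR adjusted p = 0.0425). It passed the filter on low counts only through its CDDO-Me libraries, so its test and its place in the counts are a description. The call was lost without DMSO 1, DMSO 3, CDDO-Me 2, CDDO-Me 3, PRL-295 1 or PRL-295 3 (adjusted p of 0.0547 to 0.138). It was also lost with the GC and length correction (2.73, adjusted p = 0.0511) and with correction and replicate block (0.104). The block alone (0.0945), the 6 libraries only (0.0612) and no filter on low counts (0.0537) lost it too. FN1 (fibronectin) and MMP2 (a matrix metalloproteinase) were the list's most abundant genes. FN1 averaged 1974 ± 226 CPM with CDDO-Me, 1929 ± 186 CPM with PRL-295 and 2338 ± 267 CPM with DMSO, and MMP2 259.9 ± 31.9, 248 ± 7.23 and 270.1 ± 7.31 CPM in the same order, with no call for either. Of all tested genes, 4.65% were called higher with CDDO-Me against DMSO. In that comparison 2 of the 7 had an unadjusted p under 0.05, against 26.0% of tested genes. For PRL-295 against DMSO none of the 7 was called in edgeR and 2 had an unadjusted p under 0.05, against 12.9%. The list's median was 0.26 for CDDO-Me and -0.22 for PRL-295 against DMSO.

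Genes whose pattern over the 9 libraries was most like that of a junction gene were found for the 3 with the widest range of group means. Likeness is the root mean square difference of centred log2 CPM, searched over 13114 genes. Nearest to DSC3 were IL1RAP (0.08), SLC30A1 (0.10) and CLCA2 (0.14). Nearest to DSP were PPP3CA (0.12), COL4A5 (0.13) and AFF1 (0.14). For DSG1 the nearest were SLC6A20 (0.95), KRT16 (0.97) and CDH11 (1.00), so no searched gene matched it closely.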

How the data were processed

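RNA of 9 HaCaT libraries (3 with CDDO-Me, 3 with PRL-295, 3 with DMSO) was extracted with a Qiagen RNeasy kit, per the labels' protocols. The submitters' processing notes name STAR 2.5, HTSeq 0.6.1 and the build hg38. The authors deposited raw counts per gene and FPKM per gene, in separate tables. The deposited FPKM equalled counts divided by gene length and library total to within 0.1% for 100.0% of values above 0. Strand setting and annotation release are not given in the sources used here.

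From the counts, edgeR 4.0.16 (R 4.3.3) kept 16239 of 58676 genes by its default filter on low counts, scaled libraries by TMM and fitted all 9 libraries with the quasi-likelihood test. P-values were adjusted by the Benjamini-Hochberg method over all tested genes, with calls at 0.05. Shares were compared by exact two-sided permutation tests (scipy 1.17.1). Alternatives were DESeq2 1.42.0, limma 3.58.1 on log2(FPKM + 1) and log2(FPKM + 0.1) computed from the deposited FPKM, other scalings and filters, a replicate block, the 6 libraries of a comparison, leaving out each library, and a correction for GC content (of the longest GENCODE transcript of each gene) and gene length. The scripts were tested on simulated data.

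The members and lists were chosen with earlier results of these data known. Named are all 10 members, up to 4 called genes of each list with the largest change in each comparison against DMSO or else the 2 of highest mean FPKM, and for 3 members the 3 genes of most like pattern. Some genes that this rule names are not reported here. DSG4 and the shared promoter run were added after their values were seen, as were the alternatives for list genes and the counts without DSG1.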

Additional observations from a re-analysis of the deposited data

How the results depend on the processing

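Precision is limited by 3 libraries per group, unequal spread between them and a GC trend that differs between libraries. DSG1, DSG4 and VIM also rest on few reads. For CDDO-Me against DMSO, 1497 genes were called in edgeR, against 2616 with DESeq2, 2509 with no filter and 864 with a replicate block, and 400 to 2803 without single libraries. For PRL-295 against DMSO, 111 were called, against 603 with DESeq2, 825 with no filter, 60 with the block, 650 with 6 libraries, 243 with the GC and length correction and 207 with correction and block, and 33 to 589 without single libraries. For PRL-295 against CDDO-Me, 258 were called, against 1054, 1250, 156, 45, 545 and 535 in the same order of settings, and 60 to 285 without single libraries. The F test called 922, against 2841 with no filter, 459 with the block and 287 to 1919 without single libraries.

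Of the 10 junction genes, 2 were called for CDDO-Me against DMSO, against 4 with no filter, 1 with the correction, 1 with correction and block, and 0 to 4 without single libraries. For PRL-295 against DMSO it was 0, against 1 with DESeq2, 1 with no filter, 1 with the correction and 0 to 1 without single libraries. For PRL-295 against CDDO-Me it was 4, against 7 with no filter (DSG1 among them), 2 with the block, 0 with 6 libraries and 1 to 4 without single libraries. With the block, the direct calls of DSC2 (adjusted p = 0.0708) and PERP (adjusted p = 0.0636) in edgeR were lost. Libraries with the same number correlated at -0.137 to 0.104 in their deviations from group means, so the numbers were not taken as pairs. The cause of these changes was not tested.

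Some directions turned. With the correction, and with correction and block, DSG2 was -0.14 and -0.13, JUP 0.03 and 0.02, PERP -0.11 and -0.11, and PKP3 0.14 and 0.14 for CDDO-Me against DMSO. In the same 2 settings CLDN7 was 0.04 and 0.04 and MMP2 0.03 and 0.02 for PRL-295 against DMSO, and CDH1 was -0.01 and -0.01 and FN1 0.33 and 0.33 for PRL-295 against CDDO-Me. CDH1 was -0.00 there with library totals and with limma at both pseudocounts. Without single libraries, the range for PRL-295 against DMSO was -4.76 to 2.76 for DSG1, -0.19 to 0.17 for DSG2, -0.15 to 0.12 for DSC2, -0.38 to 0.01 for DSC3, -0.15 to 0.01 for CLDN7, -0.21 to 0.04 for KLF5 and -0.16 to 0.08 for EGFR. It was -0.23 to 0.04 for JUP, -0.15 to 0.11 for NECTIN4, -0.08 to 0.05 for FN1 and -0.11 to 0.03 for MMP2 in PRL-295 against CDDO-Me. For CDDO-Me against DMSO it was -0.2 to 0.25 for PPL and -0.913 to 0.67 percentage points for the DSC2 share.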
